A study of Mus musculus with 18 samples.

Results

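Aire, Dnmt3l, Ankrd35 and Pla2g4f are 4 of the 49585 genes in a count table of leukocytes that stayed in, or left, inflamed joints and skin. They were listed together as Aire and the genes that rise with it in cells that had migrated to the draining lymph node (LN), so they were chosen by their fold changes between migrated and nonmigrated cells, and their values in it are given as a description without a test. The data did not bear out the grouping for Dnmt3l. Aire, Ankrd35 and Pla2g4f were higher in migrated than in nonmigrated cells at both sites, whereas Dnmt3l was lower in migrated cells at both sites.

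Aire (autoimmune regulator) is a nuclear protein best known from medullary thymic epithelial cells, where it opens expression of tissue-restricted antigens that are then shown to developing T cells. Outside the thymus, Aire transcripts are known from rare LN cells with features of mature dendritic cells (DCs). Dnmt3l is a relative of the DNA methyltransferases that lacks catalytic activity and acts as a cofactor in the germ line. Pla2g4f is a member of the cytosolic phospholipase A2 family, which releases fatty acids from membrane lipids. Ankrd35 encodes a protein with ankyrin repeats.

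The table held 18 libraries in 6 groups of 3, each library made from a pool of mice. All cells came from Kaede mice, whose photoconvertible protein turns from green to red under violet light, so that red cells in a node are those that left the lit tissue. By the study's protocol, recipients 6 to 10 weeks old received Th1-polarized OT-II CD4+ T cells, were immunized with ovalbumin in complete Freund's adjuvant, and were challenged in the footpad or ear pinna with 100 µg heat-aggregated ovalbumin (HAO). Viable CD45+ Kaede red+ cells were sorted from the inflamed joint (joint nonmigrated) and ear (skin nonmigrated) and from the nodes draining them (joint migrated, skin migrated). The 2 other groups are labelled as cells that moved to the node from joint or ear at steady state. Titles mark the joint steady state libraries with PBS and the letters KG, which the labels do not explain, and the skin ones as naive; how else their preparation differed from that of the inflamed groups is not stated. Whether each pool came from a separate experiment is not stated, so the errors below describe the spread between pools.

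Libraries held 35554698 to 43814403 gene counts in the joint groups, 19239531 to 22528895 in the inflamed skin groups and 28577566 to 40055171 in the skin steady state. A count of 3 corresponded to 0.0616 to 0.180 CPM (library-size-scaled counts, with TMM factors over the 18 libraries). Ptprc, which encodes CD45, was present in every library at 1160 to 2530 CPM. The groups differed in cell makeup. Summed B cell markers (5 genes) reached 2410 to 4020 CPM in the steady state libraries, 630 to 879 CPM in joint migrated, 106 to 190 CPM in skin migrated and 4.56 to 260 CPM in nonmigrated cells. Summed conventional DC markers (6 genes) were 24.7 to 31.7 CPM in steady state and 270 to 614 CPM in migrated libraries. Neutrophil markers (5 genes) were at 1090 to 15200 CPM and macrophage markers (5 genes) at 580 to 4480 CPM in nonmigrated libraries, against 6.79 to 67.4 CPM and 13.1 to 64.1 CPM in migrated libraries. In bulk samples of this kind, fewer cells of a type and less RNA per cell cannot be told apart.

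The upstream sequences of the genes are shown because 3 of the 4 moved together while Dnmt3l, which starts next to Aire, did not. Each is the run of 250 bases before a RefSeq gene start (GRCm38.p6), 5′ to 3′ on the gene's strand. All 4 genes matched the table. Capitals mark matches on either strand to the GC box core GGGCGG, the CCAAT box, the TATA box TATAAA, the ETS core GAGGAA or the NF-κB site consensus; where matches run together they are adjoining and do not overlap. Dnmt3l has 3 listed starts, and the second, outside Aire, is shown.
Aire (chr10:78043611-78043860, minus strand): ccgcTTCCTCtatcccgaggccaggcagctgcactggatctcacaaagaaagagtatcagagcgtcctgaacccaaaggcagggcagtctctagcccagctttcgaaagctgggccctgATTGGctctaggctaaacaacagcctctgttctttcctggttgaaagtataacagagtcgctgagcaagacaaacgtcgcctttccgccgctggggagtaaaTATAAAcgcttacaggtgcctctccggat
Dnmt3l (chr10:78049592-78049841, plus strand): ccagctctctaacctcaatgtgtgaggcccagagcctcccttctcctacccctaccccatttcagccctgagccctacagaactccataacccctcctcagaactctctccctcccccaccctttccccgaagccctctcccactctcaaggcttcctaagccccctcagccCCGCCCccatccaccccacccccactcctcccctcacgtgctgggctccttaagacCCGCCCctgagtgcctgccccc
Ankrd35 (chr3:96669881-96670130, plus strand): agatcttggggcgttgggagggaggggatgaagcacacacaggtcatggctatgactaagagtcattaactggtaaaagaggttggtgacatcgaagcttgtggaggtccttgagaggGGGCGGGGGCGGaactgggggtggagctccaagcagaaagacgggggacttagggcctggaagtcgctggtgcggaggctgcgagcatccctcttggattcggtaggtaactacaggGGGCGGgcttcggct
Pla2g4f (chr2:120314166-120314415, minus strand): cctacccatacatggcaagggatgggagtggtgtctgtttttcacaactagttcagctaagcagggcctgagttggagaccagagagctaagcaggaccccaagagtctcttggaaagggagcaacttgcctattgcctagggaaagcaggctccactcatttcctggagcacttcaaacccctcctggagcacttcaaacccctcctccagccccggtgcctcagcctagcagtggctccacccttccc

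Aire carries TATAAA from 29 to 24 bases before its start, a CCAAT match on the opposite strand from 131 to 127 bases before it, and a GAGGAA match (the core read by PU.1 and its relatives) at 246 to 241. Ankrd35 carries GGGCGG, the core of the GC box, at 3 places and the displayed Dnmt3l window at 2. The Pla2g4f window held none of the 5 motifs, and no member window held the NF-κB consensus. Among 32851 windows of the same length, 12.4% held TATAAA, 33.8% CCAAT, 32.7% GGGCGG, 23.3% GAGGAA and 7.3% the NF-κB consensus. No motif was common to the 3 genes that moved together. These are letter matches within the windows and describe no measured binding.

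Aire lies on chromosome 10 (mm10, 78030022 to 78043610, minus strand) and Dnmt3l on the opposite strand (78041947 to 78063622), so that their gene bodies overlap head to head over 1664 bases. Only 67 exon bases are shared, which is 1.75% of the merged Aire exons and 2.24% of the Dnmt3l exons. Of 8 annotated Dnmt3l transcripts, 2 start inside Aire. Ankrd35 lies on chromosome 3 (96670131 to 96691032, plus strand) and Pla2g4f on chromosome 2 (120299957 to 120314165, minus strand).

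**Figure D1:**
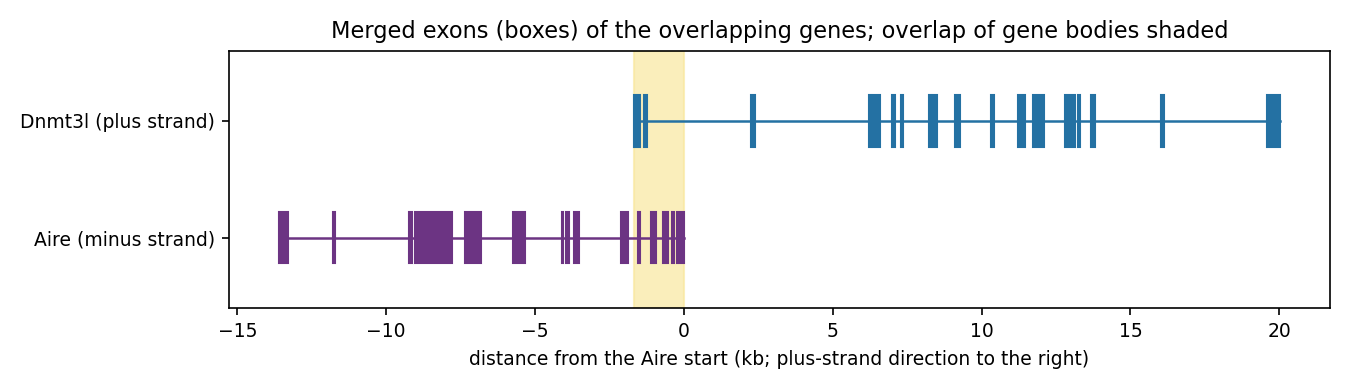
Map of the overlapping genes Aire and Dnmt3l, with distance from the Aire start in kb on the horizontal axis and 1 gene per row. Boxes are merged exons of all annotated transcripts, lines are gene bodies and the shaded 1664 bases are covered by both genes, of which 67 are exonic in both.

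How the counting treated overlaps was examined on other genes. Of 144 genes that lie wholly within exons of an opposite-strand gene with 10000 or more counts, 140 had no count in any library and none had more than 100 counts. Within shared exons, reads were therefore not added to the count of the gene on the other strand. The same would be seen whether strand was used or such reads were dropped as ambiguous, and the sources do not say which. Outside the 67 exon bases that Aire and Dnmt3l share (1.75% and 2.24% of their exon bases), their annotated exons lie at different positions. Reads from those exons are told apart by position, whether or not strand was used. If strand was not used, transcripts of either gene that run beyond its annotated exons into exons of the other could still be miscounted. Both genes are uncertain to that extent.

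Aire transcripts stood out in both migrated groups. In joint migrated libraries Aire was at 15.5, 19.6 and 23.7 CPM (755, 839 and 1107 counts) and in skin migrated libraries at 15.9, 19.2 and 17.9 CPM. All 6 values lay above every other library, and the 2 migrated groups overlapped each other. Steady state node cells came next, with 1.65, 2.53 and 2.00 CPM for the joint and 1.57, 1.64 and 1.28 CPM for the skin. The tissues themselves held the least, with 0.660, 0.993 and 0.624 CPM in skin nonmigrated and 0.274, 0.266 and 0.361 CPM in joint nonmigrated cells. The last of these rest on 8 to 12 counts per library.

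Ankrd35 transcripts were at 26.5, 39.5 and 36.9 CPM in joint migrated and at 34.9, 51.8 and 48.6 CPM in skin migrated libraries. Outside the migrated groups the order differed from that of Aire. Skin nonmigrated cells followed with 1.86, 2.28 and 1.2 CPM. Joint nonmigrated (0.520, 0.531 and 0.361 CPM), joint steady state (0.245, 0.589 and 0.399 CPM) and skin steady state cells (0.471, 0.671 and 0.702 CPM) overlapped one another.

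Pla2g4f transcripts reached 62.8, 80.1 and 69.3 CPM in skin migrated and 25.8, 35.3 and 40.4 CPM in joint migrated libraries, which did not overlap. Skin nonmigrated cells held 4.26, 9.23 and 2.65 CPM, above the 1.59, 1.37 and 1.47 CPM of the skin steady state. The lowest levels were in joint steady state (0.645, 0.663 and 0.887 CPM) and joint nonmigrated cells (0.356, 0.531 and 0.361 CPM). At each stage the skin value was above the joint value in every library.

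Dnmt3l transcripts were scarce throughout and ran the other way. The highest levels were in skin nonmigrated cells, at 2.76, 1.29 and 5.51 CPM (46, 22 and 106 counts), followed by joint nonmigrated cells at 0.738, 1.23 and 1.11 CPM. Joint migrated libraries held 0.185, 0.234 and 0.193 CPM and skin migrated libraries 0.326, 0.350 and 0.310 CPM, from 7 to 10 counts each. Joint steady state (0.356, 0.294 and 0.599 CPM) and skin steady state cells (0.381, 0.324 and 0.275 CPM) overlapped with skin migrated cells. At 7 to 10 counts a library, only large differences among these node groups could be seen.

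**Figure D2:**
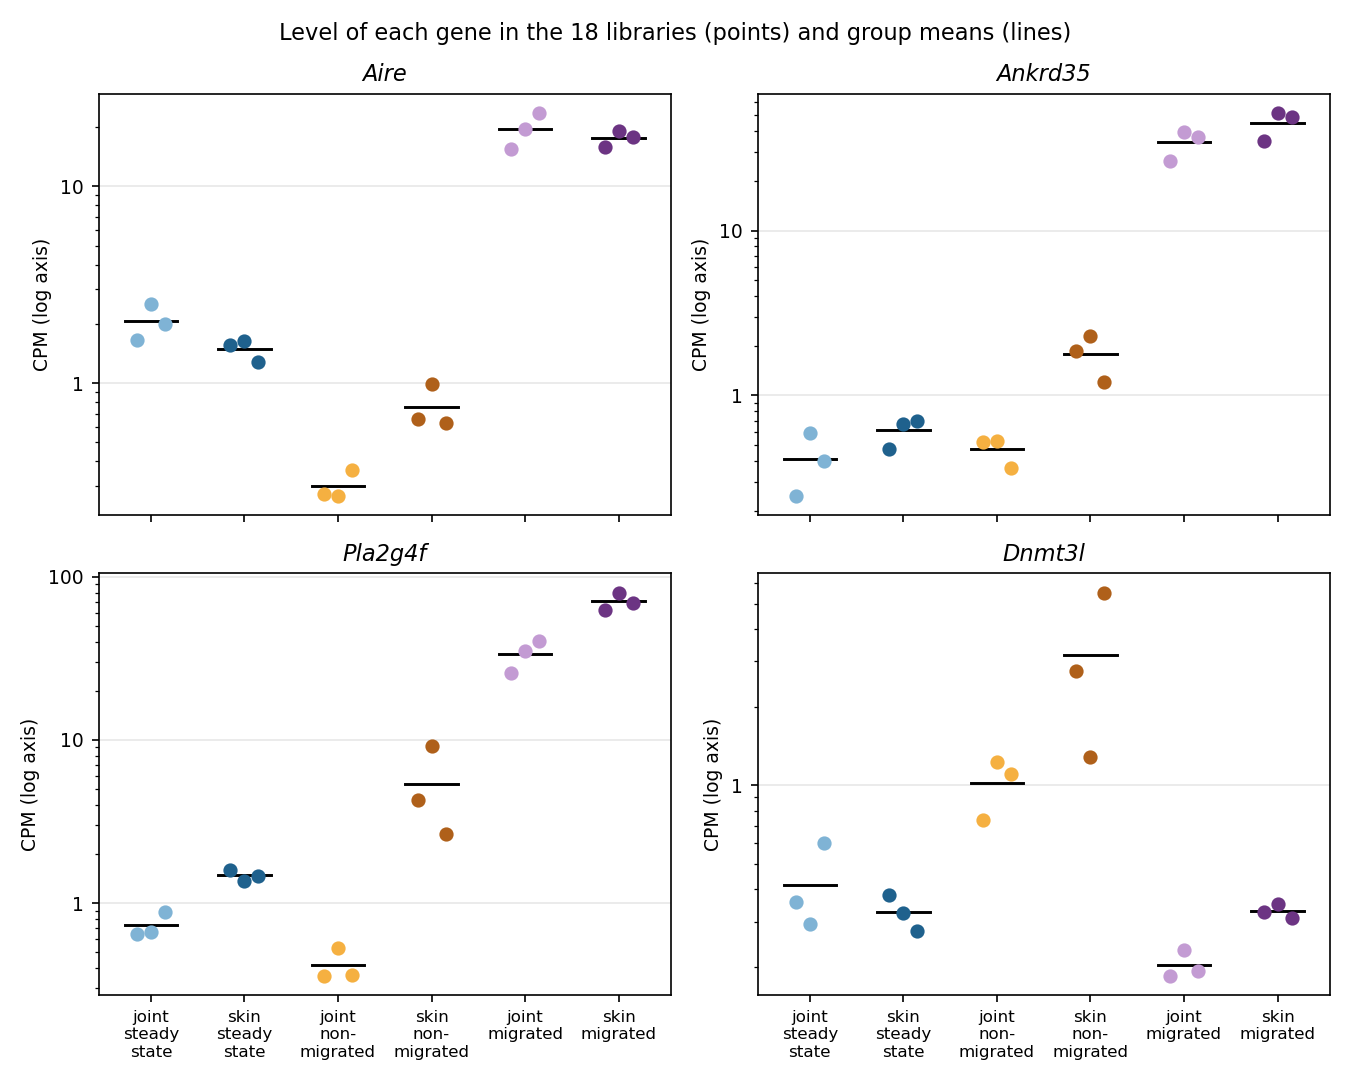
CPM on a log axis for the 4 genes in each of the 18 libraries (points) with group means (lines), 1 panel per gene, each with its own scale. Aire, Ankrd35 and Pla2g4f were highest in the 6 migrated libraries (15.5 CPM or more), whereas Dnmt3l was highest in the 6 nonmigrated libraries (0.738 CPM or more).

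Per kilobase of merged exon, which allows levels of different genes to be compared, Pla2g4f led in skin migrated cells at 22.1 ± 2.73 CPM per kb (SD, n = 3), ahead of Ankrd35 at 11 ± 2.21 and Aire at 4.62 ± 0.435. In joint migrated cells Pla2g4f (10.6 ± 2.31) and Ankrd35 (8.40 ± 1.68) differed by less than their summed spread, with Aire at 5.13 ± 1.08. Dnmt3l stood at 0.0682 ± 0.00875 CPM per kb in joint migrated and 0.110 ± 0.00664 in skin migrated cells. In skin nonmigrated cells the order of Aire and Dnmt3l was turned, with Dnmt3l at 1.07 ± 0.717 and Aire at 0.198 ± 0.0533 CPM per kb.

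The migration contrast gave fitted log2 fold changes in the joint (migrated minus nonmigrated) of 6.01 for Aire (SE 0.264), 6.18 for Ankrd35 (SE 0.300) and 6.35 for Pla2g4f (SE 0.452), or 64.5-fold, 72.3-fold and 81.3-fold. Among all 16777 genes tested, 16.0% were called higher and 18.4% lower in that comparison, a call being an edgeR adjusted p below 0.05 together with more than 1 log2 unit in either direction. In the skin the differences were 4.53 for Aire (SE 0.249), 4.66 for Ankrd35 (SE 0.274) and 3.71 for Pla2g4f (SE 0.374), with 15.7% of genes called higher and 19.7% lower. Dnmt3l differed by -2.31 in the joint (SE 0.491) and -3.27 in the skin (SE 0.507), 4.95-fold and 9.63-fold lower in migrated cells. The genes were listed with values of these same libraries known, so none of the comparisons below is free of the choice of genes.

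**Figure D3:**
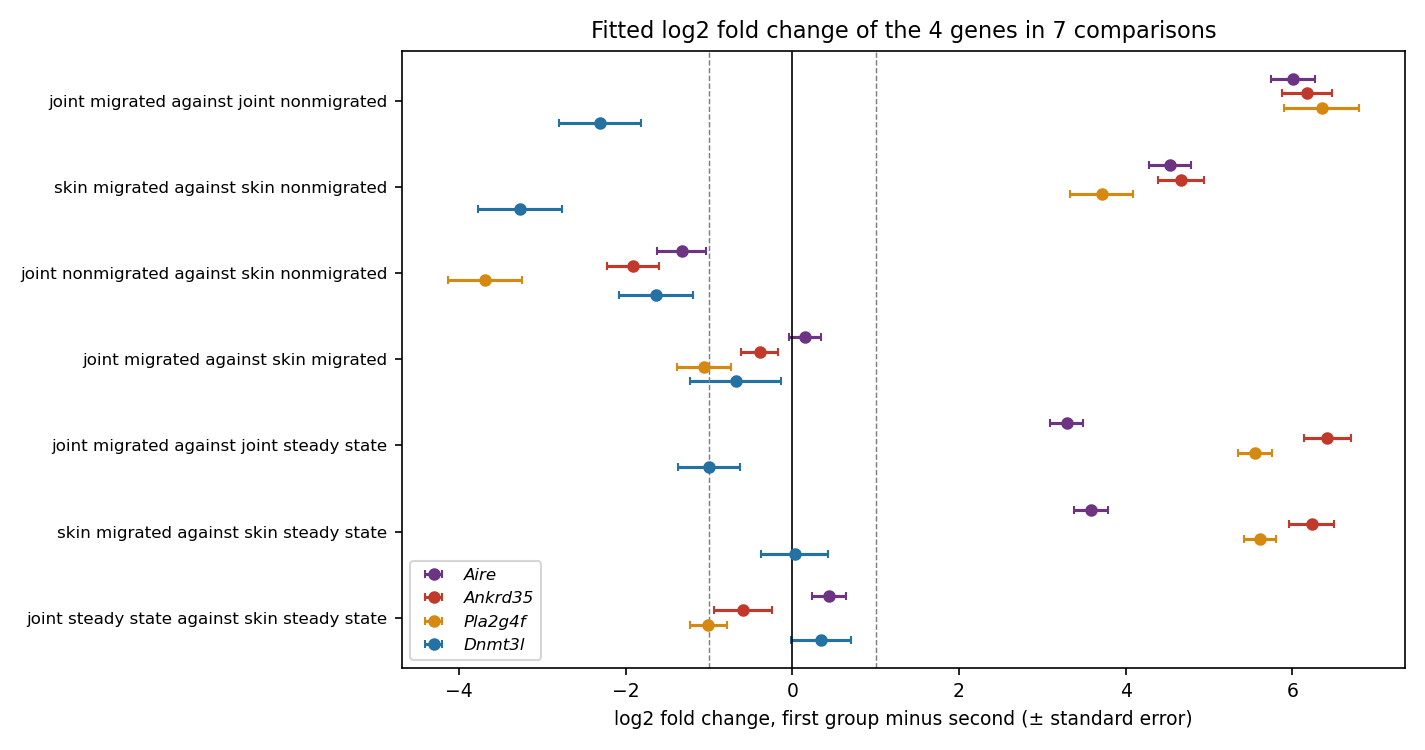
Fitted log2 fold change with its standard error (horizontal axis) for the 4 genes (colours) in the 7 comparisons (rows), first named group minus second; dashed lines mark -1 and 1. Aire, Ankrd35 and Pla2g4f lay to the right of 3 in all 4 comparisons that set migrated cells against nonmigrated or steady state cells, and Dnmt3l lay to the left of -2 against nonmigrated cells.

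Node cells from inflamed sites were then compared with node cells at steady state. The genes were listed as rising with Aire in these same data, and the migrated libraries hold their highest levels. The p-values for Aire, Ankrd35 and Pla2g4f are therefore given as a description and are no separate support for their rise. How the steady state cells were sorted is not stated, so inflammation, migration and preparation cannot be told apart here. Aire, Ankrd35 and Pla2g4f were higher in the cells from inflamed sites at both sites, and Dnmt3l was not called at either. In the joint, Aire was 9.75-fold higher (log2 3.29, SE 0.198, edgeR adjusted p = 3.21e-08), Ankrd35 85.5-fold (log2 6.42, SE 0.280, edgeR adjusted p = 4.70e-09) and Pla2g4f 46.9-fold (log2 5.55, SE 0.203, edgeR adjusted p = 1.81e-09). In the skin, Aire was 12-fold higher (log2 3.58, SE 0.206, edgeR adjusted p = 9.93e-09), Ankrd35 75.3-fold (log2 6.23, SE 0.272, edgeR adjusted p = 1.47e-09) and Pla2g4f 48.9-fold (log2 5.61, SE 0.195, edgeR adjusted p = 3.74e-10). The background was 16.9% of 17107 genes called higher and 7.31% lower in the joint, and 21.5% higher and 15.0% lower in the skin. Per kilobase, Aire was the most abundant of the 4 genes in joint steady state cells, at 0.538 ± 0.116 CPM per kb, with Pla2g4f at 0.228 ± 0.0422. In skin steady state cells Pla2g4f led, at 0.460 ± 0.0354 CPM per kb, with Aire at 0.392 ± 0.0498.

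For Dnmt3l the joint difference was -1.0 (SE 0.373, edgeR adjusted p = 0.0394), with the fold just short of the limit, and the groups did not overlap. Its skin difference was 0.03 (SE 0.402, edgeR adjusted p = 0.977). The joint value was called with DESeq2 size factors (-1.01) and without joint steady state replicate 2 (-1.19), and was not called in the other 11 alternatives.

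Whether the inflamed against steady state difference was unequal at the 2 sites was tested with an interaction term, a test added after the data had been seen. The 2 steady state groups are titled differently, PBS with KG and naive, so this term is not free of their preparation. The joint minus skin difference was -0.30 for Aire (SE 0.271, edgeR adjusted p = 0.514), 0.18 for Ankrd35 (SE 0.392, edgeR adjusted p = 0.799), -0.06 for Pla2g4f (SE 0.285, edgeR adjusted p = 0.921) and -1.03 for Dnmt3l (SE 0.549, edgeR adjusted p = 0.251). None passed, while 1724 of 17107 genes had an adjusted p under 0.05 for the same term.

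Conventional DC markers were higher with these genes against steady state, but not as a group on migration. Against steady state, 6 of 6 such markers were called higher in the joint and 4 of 6 in the skin, led by Flt3, the receptor for a DC growth factor (log2 5.64 and 5.79), and Zbtb46, a transcription factor of that lineage (log2 5.10 and 5.46). On migration 2 of the 6 were called higher and 2 lower in the joint, and 2 higher and 4 lower in the skin (median -1.44), and their sums in nonmigrated libraries, 249 to 352 CPM in the joint and 382 to 479 CPM in the skin, were close to or overlapped those in migrated libraries. Over all genes 16.9% were called higher and 7.31% lower against steady state in the joint, and 21.5% and 15.0% in the skin. On migration the shares were 16.0% and 18.4% in the joint, and 15.7% and 19.7% in the skin. Against steady state B cell markers were called lower in 5 of 5 at both sites. Macrophage markers were called higher in 5 of 5 in the skin (median 3.47), with sums of 24 to 64.1 CPM against 4.86 to 6.02 CPM, and in the joint 3 of 5 were called higher and 1 lower (median 1.2), with overlapping sums of 13.1 to 39.7 and 15.4 to 35.6 CPM. Within the joint migrated group the library with the least Aire, Ankrd35 and Pla2g4f (15.5, 26.5 and 25.8 CPM) also had the lowest sum of conventional DC markers (270 CPM, against 528 and 536) and of mature migratory DC genes (5410 CPM, against 11600 and 13400). Its macrophage sum was the lowest as well (13.1 CPM, against 32.9 and 39.7). Its sums of T cell markers (1330 CPM, against 1170 and 979) and B cell markers (879 CPM, against 630 and 813) were the highest. The part of cell makeup in the higher levels of the 3 genes was not tested.

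Joint was next compared with skin. In nonmigrated cells all 4 genes were called lower in the joint, where 8.86% of all genes were called lower and 5.45% higher. Pla2g4f differed most, by -3.69 (SE 0.446, edgeR adjusted p = 0.000275), followed by Ankrd35 with -1.91 (SE 0.311, edgeR adjusted p = 0.00142), Dnmt3l with -1.64 (SE 0.444, edgeR adjusted p = 0.0188) and Aire with -1.33 (SE 0.292, edgeR adjusted p = 0.00693). No gene's joint and skin libraries overlapped, but the share of all genes without overlap was not counted. In this comparison 6794 of 16777 genes had an unadjusted edgeR p under 0.05. With only the 6 compared libraries in the fit, Aire (edgeR adjusted p = 0.0625) and Dnmt3l (edgeR adjusted p = 0.0793) were no longer called, and Dnmt3l was also lost without skin nonmigrated replicate 3 (log2 -0.98) or joint nonmigrated replicate 1 (log2 -1.44).

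The skin nonmigrated libraries were not alike in these genes. Replicate 3 held the most Dnmt3l (5.51 CPM) and the most macrophage marker counts (3230 CPM, against 1030 and 580), and replicate 2 the least of both (1.29 and 580 CPM). For Pla2g4f the order was opposite, with 9.23 CPM in replicate 2 and 2.65 CPM in replicate 3, as for the mature migratory DC genes (7010 and 3010 CPM). Summed neutrophil markers (2100 and 1090 CPM) and T cell markers (665 and 248 CPM) had that order too. Summed conventional DC markers (413 and 479 CPM) and B cell markers (5.43 and 11.4 CPM) were higher in replicate 3. Aire and Ankrd35 were also highest in replicate 2 (0.993 and 2.28 CPM). These are orders of 3 pools, and the part of cell makeup in them was not tested.

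Between joint and skin migrated cells none of the 4 genes was called, with 0.560% of genes called higher and 0.578% lower. Aire differed by 0.15 (SE 0.196, edgeR adjusted p = 0.747), Ankrd35 by -0.39 (SE 0.222, edgeR adjusted p = 0.412) and Dnmt3l by -0.68 (SE 0.548, edgeR adjusted p = 0.579). Pla2g4f was 2.09-fold lower in joint migrated cells and its groups did not overlap (log2 -1.06, SE 0.329, edgeR adjusted p = 0.133). It was called with all 18 libraries in the fit (edgeR adjusted p = 0.0456) and with only the 6 compared (edgeR adjusted p = 0.0227). At steady state Pla2g4f was again lower in the joint (log2 -1.01, SE 0.220, edgeR adjusted p = 0.0119), and it was the only one of the 4 called, against 3.23% of genes called higher and 0.655% lower. That call sat at the edge of the fold limit and held in 7 of 13 alternatives, being lost without skin steady state replicate 1 (-0.96), joint steady state replicate 1 (-0.94) or joint steady state replicate 2 (-0.96). Aire differed by 0.44 (SE 0.205, edgeR adjusted p = 0.236) between steady state nodes.

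Because Aire and Dnmt3l overlap, their counts were also compared within each library, where library size cancels. Per 100 Aire counts there were 1.19, 1.19 and 0.813 Dnmt3l counts in joint migrated and 2.05, 1.82 and 1.74 in skin migrated libraries. Steady state libraries held 21.6, 11.7 and 30.0 in the joint and 24.3, 19.7 and 21.4 in the skin. In nonmigrated libraries Dnmt3l counts exceeded Aire counts, at 270, 462 and 308 per 100 in the joint and 418, 129 and 883 in the skin. The 3 kinds of sample did not overlap. The mean log2 ratio of Dnmt3l to Aire was -6.07 in node cells from inflamed sites and -2.24 at steady state, a difference of -3.84. The exact two-sided permutation p was 0.00500 over 400 arrangements within sites, the smallest that this design allows. Aire alone differed by 3.29 in the joint and 3.58 in the skin, and Dnmt3l by -1.0 and 0.03. The ratio therefore largely restates the Aire difference and is no separate evidence on Dnmt3l.

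**Figure D4:**
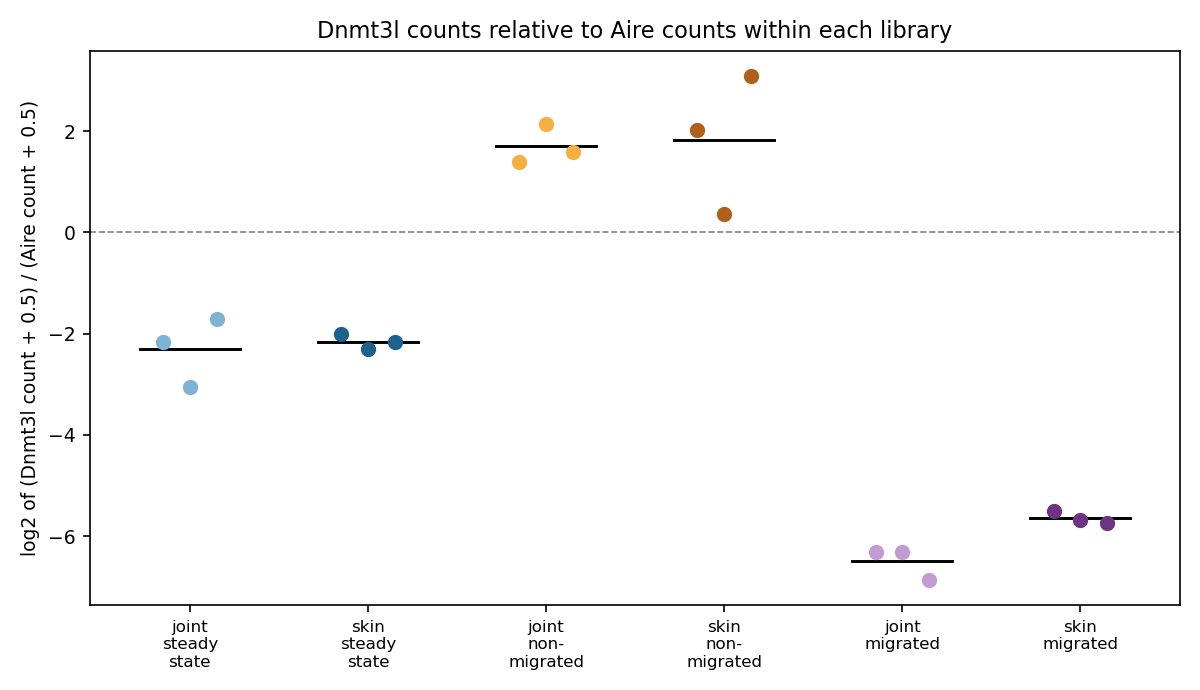
Log2 ratio of Dnmt3l to Aire counts (0.5 added to each) in each of the 18 libraries, by group (points) with group means (lines); the dashed line marks equal counts. Means ran from -6.50 in joint migrated and -5.65 in skin migrated, through -2.31 and -2.16 at steady state, to 1.71 and 1.82 in nonmigrated cells.

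Genes with an end within 100 kb of a member were examined too. There were 28, of which 21 passed the low-count filter in the inflamed libraries. In the joint migration comparison 4 were called higher and 2 lower, and in the skin 5 higher and 3 lower, where 16.0% and 18.4% of all genes in the joint and 15.7% and 19.7% in the skin were called higher and lower. Against steady state 6 of 23 were called higher at each site and none lower, beside 16.9% and 21.5% of all genes called higher. These counts were near the shares over all genes, so nothing is read from them about the neighbours as a group. Next to Ankrd35, at 15 kb, Nudt17 (a Nudix hydrolase) followed its course: it was at 124 CPM in joint migrated and 1.64 CPM in joint nonmigrated cells on average (log2 6.24, SE 0.568, edgeR adjusted p = 4.63e-06), and 7.19 higher than at steady state (SE 0.374, edgeR adjusted p = 9.69e-09). In the skin its difference was 4.58 against nonmigrated (SE 0.519, edgeR adjusted p = 2.21e-05) and 7.00 against steady state cells (SE 0.366, edgeR adjusted p = 4.69e-09). Pias3, 5.35 kb from Ankrd35 and a regulator of STAT3, was called higher against steady state with 1.64 and 1.6, as were Polr3c (1.23 and 1.46), Rnf115 (1.65 and 2.22) and Lix1l (2.94 and 2.64).

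Beside Pla2g4f, its paralog Pla2g4d at 10.8 kb was called higher in joint migrated cells against both joint nonmigrated (edgeR adjusted p = 0.000620) and joint steady state cells (edgeR adjusted p = 0.000321). Its mean levels were only 0.309, 0.0100 and 0.0156 CPM in those groups, too few counts for a fold. Vps39, at 2.3 kb, was not called in any comparison. Around Aire and Dnmt3l, Icosl (ICOS ligand, a T cell costimulator, 5.68 kb from Dnmt3l) was called higher in migrated cells by 2.32 in the joint (SE 0.197, edgeR adjusted p = 2.96e-06) and 2.19 in the skin (SE 0.196, edgeR adjusted p = 4.09e-06). Against steady state Icosl differed by 0.16 and 0.66, short of the fold limit. Trpm2, a calcium-permeable channel 59.5 kb from Aire, was lower in joint (-4.12) and skin migrated cells (-5.62) than in nonmigrated cells, as was Pfkl, a glycolytic enzyme (-1.13 and -1.95).

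The genes most like Aire over the 18 libraries, by Pearson correlation of log2 CPM among 15947 genes, were Carmil3 (0.98), Slc25a29, Klhdc8b, Mical3, Extl1, Zc3h7b, Gal3st2c, Foxp4, Akap2 and Tmem151b (0.97). Carmil3, at 23.4 CPM in joint migrated and 25.7 CPM in skin migrated cells on average, was at 1.66 and 1.56 CPM at steady state and at 0.268 and 1.31 CPM in nonmigrated cells. Foxp4, a forkhead transcription factor, was more abundant and less variable, at 299 and 314 CPM in migrated and 62.3 to 115 CPM in all other groups. The 18 points share 6 group means, so these values describe the group pattern. Ankrd35 stood at position 184 (0.91), Pla2g4f at 297 (0.88) and Dnmt3l at 14402 (-0.65). Over the 12 node libraries alone Ankrd35 was at 0.98 and Pla2g4f at 0.96. For deviations from the group means the values fell to 0.63, 0.61 and -0.40 for Ankrd35, Pla2g4f and Dnmt3l.

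Genes of mature migratory DCs, the cell state in which extrathymic Aire is best known, were higher together with Aire. Of 16 listed genes 15 were tested (Il4i1 did not pass the filter), and in the joint migration comparison 12 were called higher, with a list median of 3.45 against 0.02 over all genes. Apol7c (7.27), the actin bundler Fscn1 (6.77), the channel subunit Cacnb3 (6.05) and Ccr7, the receptor that guides DCs to nodes (4.87), led the list. In the skin 11 were called higher, with a list median of 1.67 against 0.01. Over all genes 16.0% were called higher in the joint and 15.7% in the skin on migration, and 16.9% and 21.5% against steady state. Against steady state 12 were called higher in the joint (median 2.64 against -0.02) and 14 in the skin (median 3.60 against 0.00), with Ccl22, a chemokine for CCR4+ T cells (10.08 and 8.80), Fscn1 (9.80 and 9.30), Apol7c (9.39 and 7.60) and Cacnb3 (7.77 and 8.46) in front. The exceptions, named after their values were seen, were Ccl17 on migration (-1.75 in the joint and -1.15 in the skin), Cd274 on migration in the skin (-2.64), and Lamp3, which was called lower than at steady state in the joint (-2.82) and, at a mean of 0.0912 CPM, in the skin. In joint against skin nonmigrated cells 9 of 15 were called lower, led by Fscn1 (-3.88) and Cacnb3 (-3.56), in the same direction as the 4 members, and Cd83 was called higher (1.62). Over all genes 8.86% were called lower and 5.45% higher in that comparison. Between migrated groups none of the 15 was called, where only 0.560% of all genes were called higher and 0.578% lower, so nothing is read from it. A rise on migration was not particular to this list. B cell markers were called higher in 5 of 5 at both sites (medians 2.35 and 5.35). T cell markers were called higher in 5 of 5 in the joint and 3 of 5 in the skin (medians 2.94 and 1.03). Macrophage and neutrophil markers were called lower in 5 of 5 at both sites.

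The pathway that induces Aire in the thymus, from RANK, CD40 and the lymphotoxin β receptor through noncanonical NF-κB, held members called in both directions. Of 17 genes 5 were called higher in joint migrated cells against steady state and 7 higher with 1 lower in the skin, with list medians of 0.51 and 0.69, beside 16.9% and 21.5% of all genes called higher. Tnfrsf11a, which encodes RANK, showed the largest difference, 6.22 in the joint (SE 0.336, edgeR adjusted p = 1.28e-08) and 7.79 in the skin (SE 0.375, edgeR adjusted p = 2.38e-09). Relb, the NF-κB subunit of this branch, was higher by 2.64 and 3.20, Cd40 by 1.47 and 2.21, and Tnfsf11, the RANK ligand, by 1.68 and 2.20. Relb and Cd40 are also on the list of mature migratory DC genes, so the counts of these lists are not independent. In the migration comparisons 7 were called higher and 1 lower in the joint, and 5 higher and 1 lower in the skin. Over all genes these shares were 16.0% and 18.4% in the joint, and 15.7% and 19.7% in the skin. Relb (2.38 and 2.02) and Ltb (2.66 and 1.83) were again higher, and Tnfrsf11a was not called, at -0.22 and 0.94. Ltbr, the lymphotoxin β receptor, lay between: it was lower in migrated than in nonmigrated cells (-3.29 and -2.64) and higher than at steady state, by 1.41 in the joint (13.2 against 5.06 CPM) and 4.86 in the skin (17.8 against 0.614 CPM).

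Genes of proteins that bind or act with Aire were mostly not called. Over all genes 16.0% were called higher and 18.4% lower in the joint on migration, and 15.7% higher and 19.7% lower in the skin. Of 17 partner genes 2 were called higher and none lower in the joint, and 5 higher with 2 lower in the skin. Among them were Xrcc5, encoding the Ku80 subunit of the DNA end-binding complex, at 2.34 and 2.10, and Prkdc, the kinase of that complex, at 1.15 and 1.64. Against steady state the only partner called was the topoisomerase gene Top2a, a gene of dividing cells, at 2.70 in the joint and 3.44 in the skin. There 16.9% of all genes were called higher in the joint and 21.5% in the skin. Of the 6 other SAND domain genes none was called in either migration comparison, and against steady state only Sp140 in the skin was (1.16).

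Several thymic epithelial genes, and most antigens that depend on Aire in the thymus, were at or near 0 counts. Insulin 2 (Ins2), Tff3 and Rbp3 had no count in any of the 18 libraries, which allows up to 0.0616 to 0.180 CPM per library. Csn2, a milk casein gene too low to be tested, had counts in all 6 migrated libraries, at means of 0.0852 CPM in the joint and 0.108 CPM in the skin, against 0.00912 CPM or less in each other group. Its lowest values, 0.0234 CPM in joint and 0.0465 CPM in skin migrated libraries, lay below the level of 3 counts (0.0616 CPM or more). So few counts allow no reading. The thymic epithelial factor Foxn1 had no count in joint migrated libraries and averaged 0.0148 CPM in skin migrated ones, and Fezf2 had no count in either. Among 5 antigens Chrna1 alone was tested, and it differed by -0.62 and 0.22 on migration without being called, and was called lower than at steady state in the skin (-1.15). Of 11 thymic epithelial genes 6 were tested against steady state, where 3 were called higher in the joint (median 0.51) and 5 higher and 1 lower in the skin (median 3.32), beside 16.9% and 21.5% of all genes called higher. Cldn3, a tight junction gene, was at a mean of 1.12 CPM in skin migrated libraries and had no count at either steady state. Epcam, shared by thymic epithelium, Langerhans cells and other cells, was higher in joint migrated cells by 1.57 against nonmigrated and 1.48 against steady state. In skin migrated libraries Krt18 (1.05 to 7.35 CPM) was higher than at steady state by 4.65, and Krt8 was at 0.25 to 3.63 CPM against 0.0224 to 0.0305 CPM, so that both varied widely between pools. Krt5, a basal keratinocyte gene, was at 12.3 to 149 CPM in skin nonmigrated libraries and had no count in skin migrated ones.

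Among 7 genes of DNA methylation, 2 were called higher in the joint and 1 higher and 1 lower in the skin on migration, where 16.0% of all genes in the joint and 15.7% in the skin were called higher. The catalytic genes Dnmt1, Dnmt3a and Dnmt3b, named after their values were seen, were called in none of the 7 comparisons. Uhrf1, which brings Dnmt1 to replicating DNA, was higher in migrated cells by 1.44 in the joint and 2.17 in the skin, and by 2.68 (edgeR adjusted p = 1.22e-08) and 3.73 (edgeR adjusted p = 9.74e-10) against steady state. The demethylation gene Tet1 was higher by 1.38 on migration in the joint and lower than at steady state (-1.37 and -2.86).

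Other phospholipase A2 genes were called in both directions. On migration 2 of 10 were called higher and 3 lower in the joint, and 2 higher and 4 lower in the skin, beside 16.0% and 18.4% of all genes in the joint and 15.7% and 19.7% in the skin. Pla2g7, a secreted enzyme abundant in macrophages, was lower at both sites (-5.57 in each), as was Pla2g15, the lysosomal member (-3.48 and -2.39). Pla2g4a, the best known cytosolic member, was lower at both sites as well (-3.33 and -3.99). Pla2g2d, a secreted form found in resident DCs, was higher by 4.07 in the joint. Against steady state, besides Pla2g4d at both sites, Pla2g2d (2.66) was called in the joint, and Pla2g7 (4.09) and Pla2g4a (3.64) in the skin.

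**Figure D5:**
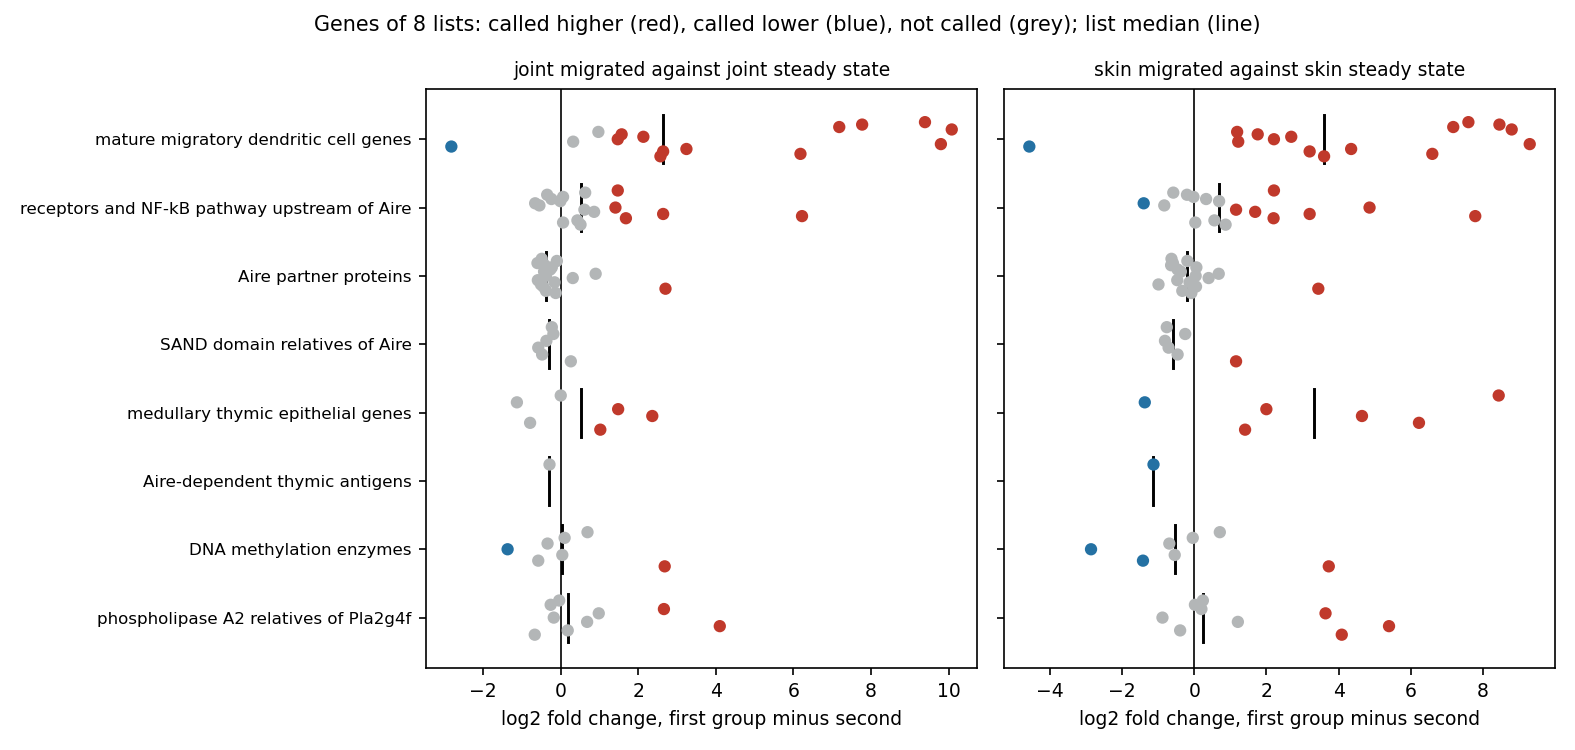
Log2 fold change of each tested gene of 8 lists (points, horizontal axis) in migrated against steady state node cells of the joint (left) and skin (right), coloured by call, with list medians as lines. Medians of mature migratory DC genes were 2.64 and 3.60, whereas those of Aire partner proteins were -0.38 and -0.19.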

How the data were processed

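The authors sequenced TruSeq libraries as paired reads, trimmed them with Trim-Galore!, aligned them with TopHat2 to mm10 and made the deposited raw counts per Ensembl gene with HTSeq at default settings; the strand setting of the kit is not given in the sources used here. Symbols came from GENCODE M21 (49326 of 49585 genes matched). The 5 HTSeq summary rows, with 1.84 to 2.37% of reads ambiguous between genes, were left out. Counts were tested with edgeR 4.0.16 in R 4.3.3 (quasi-likelihood F test, TMM, filterByExpr with a minimum count of 10, Benjamini-Hochberg over all genes tested), in one fit of the 12 inflamed libraries and one of the 12 node libraries. Genes were called at an adjusted p under 0.05 and an absolute log2 fold change above 1, the thresholds of the study's methods. In simulated counts for joint migrated against joint steady state (17107 genes), 54.0% of genes raised by log2 1 and 92.0% raised by log2 2 were recovered. For joint nonmigrated against joint migrated (16777 genes) the shares were 36.0% and 82.0%. Of genes lowered by log2 2, 72.0% and 56.0% were recovered in these 2 comparisons. Recovery here meant an adjusted p under 0.05 without the fold limit, so the share called at log2 1 would be lower. Replicates of a group differed by more than sampling noise (chi-square per degree of freedom 16.2 to 130).

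The members and gene lists were chosen with earlier results of these data known. Named genes were the members, genes within 100 kb of a member, the 10 with the highest correlation with Aire (log2 of CPM plus 0.25), and up to 4 called genes of largest fold per list and comparison. Alternatives were a threshold of 0.001, DESeq2 1.42.0 (its size factors, and its Wald test), no filter, a replicate block, other sets of libraries and leaving out each library. Floors (3 counts) cover counting error only, whereas the SEs and SDs include the spread between pools. Figures were drawn with matplotlib 3.10.9. The results of 1 further gene list are not reported here.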

Additional observations from a re-analysis of the deposited data

How the results depend on the processing

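Counts of genes called stayed within 1.5 times the values above except as follows. At an adjusted p under 0.001 they were 3586 (joint migration), 3508 (skin migration), 511 (joint against skin nonmigrated), 0 (joint against skin migrated, where edgeR called 191 at 0.05 and 2770 had an unadjusted p under 0.05), 2714 (joint migrated against steady state) and 246 (joint against skin steady state). Joint against skin migrated gave 465 genes with the DESeq2 Wald test, 327 without a filter on low counts and 407 with all 18 libraries in the edgeR fit. Leaving out each library in turn gave 5217 to 5658, 5801 to 6185, 1745 to 3720, 58 to 171, 3777 to 4234, 6129 to 6340 and 465 to 603 genes for joint migration, skin migration, joint against skin nonmigrated, joint against skin migrated, joint and skin migrated against steady state, and joint against skin steady state. The 3720 came without skin nonmigrated replicate 3. Joint against skin migrated gave 58 to 63 genes without any single library other than skin migrated replicate 2, and 171 without that library.

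For Dnmt3l in skin migrated against steady state the sign changed without a filter (-0.02) and with all 18 libraries (0.00), with a range of -0.12 to 0.11 over left-out libraries; between steady states it was -0.02 without joint steady state replicate 3 (range -0.02 to 0.52). These differences were near 0 throughout. Aire, Ankrd35 and Pla2g4f kept their calls against steady state at both sites in all 13 alternatives. The calls of Aire, Ankrd35 and Dnmt3l between nonmigrated groups were also lost at 0.001 (Ankrd35 kept its call in the other 12 alternatives), and the Pla2g4f steady state call was lost at 0.001, without a filter (-1.0) and with all 18 libraries (edgeR adjusted p = 0.144). The skin migration value was 4.78 for Aire and 4.36 for Pla2g4f without skin nonmigrated replicate 2. The causes were not tested.

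Deviations of same-numbered libraries correlated at 0.01 to 0.19 in joint migration, skin migration and joint against skin migrated, and at -0.32 to 0.04 in the other 4 comparisons. In no comparison were all 3 pairs over 0.1, so the numbers were not taken as pairing, and the labels do not say whether they mark a shared batch. With the replicate number as a block the counts of genes called were 5747, 5834, 2285, 159, 3836, 5953 and 611 in the order above, and the difference in the Dnmt3l to Aire log2 ratio was -3.84 (exact two-sided permutation p = 0.0312, the smallest this pairing allows). Depth limits Dnmt3l most, at 7 to 10 counts in each migrated library.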
